A study of Mus musculus with 10 samples.

Results

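The Schlafen genes of the mouse form a family of interferon-linked genes, and the 7 members examined here (Slfn1, Slfn2, Slfn3, Slfn4, Slfn5, Slfn8 and Slfn9) were chosen by name from the 40789 genes of a table of raw read counts. All 7 were listed there. RNA had been sequenced from microglia, which are the tissue macrophages of the brain, sorted from 10 female mice aged 2 to 3 months on a C57BL6/J background. Every mouse was CX3CR1+/egfp, that is, 1 copy of the fractalkine receptor gene carried a green fluorescent reporter, in treated and control animals alike. In the LPS group (n = 5) each mouse received 4 mg/kg of lipopolysaccharide, a component of the bacterial cell wall, into the peritoneum, and in the control group (n = 5) saline. The cortex was taken 24 hours later and cells with high reporter fluorescence were sorted, 1 mouse per library.

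Schlafen proteins were named after the German word for sleeping because early members were seen to hold back the growth of T cells. Short members (Slfn1 and Slfn2) consist of little more than the conserved core domain, intermediate members (Slfn3 and Slfn4) carry a further linker domain, and long members (Slfn5, Slfn8 and Slfn9) add a region that resembles a helicase. Several are induced by type I interferon, and in macrophages also by ligands of Toll-like receptors. The core domain binds RNA, and members of the family act on transfer RNA: some cleave it, while Slfn2 shields it from the ribonuclease angiogenin in T cells.

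All 7 genes lie in 1 cluster of 264 kb on chromosome 11 of GRCm38 (82951349 to 83215154), in the order Slfn5, Slfn9, Slfn8, Slfn2, Slfn1, Slfn4 and Slfn3. The pseudogene Slfn10-ps stands between Slfn8 and Slfn2. Slfn9, Slfn8 and Slfn10-ps are on the minus strand and the others on the plus strand. Stretches before start sites are given first, since they show which neighbours resemble each other; they come from the RefSeq table of GRCm38.p6, in which 7 of 7 members were matched. Each runs 5′ to 3′ on the strand of its gene and holds no annotated exon base of it. That of Slfn5 precedes a start site inside the gene and lies between exons of longer annotated transcripts; the others lie before the gene. Capitals mark GAAA followed, after any 2 bases, by GAAA, on either strand. This is the core of the interferon-stimulated response element to which STAT and IRF factors bind.

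Slfn5 (chr11:82951852-82951984, plus strand): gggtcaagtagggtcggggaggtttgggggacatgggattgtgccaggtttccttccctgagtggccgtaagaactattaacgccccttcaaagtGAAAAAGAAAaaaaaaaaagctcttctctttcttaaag
Slfn9 (chr11:82991831-82992080, minus strand): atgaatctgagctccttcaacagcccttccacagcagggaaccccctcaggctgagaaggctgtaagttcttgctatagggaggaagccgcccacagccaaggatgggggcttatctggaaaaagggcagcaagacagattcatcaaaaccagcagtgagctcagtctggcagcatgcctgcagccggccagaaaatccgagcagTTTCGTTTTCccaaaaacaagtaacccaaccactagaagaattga
Slfn8 (chr11:83020811-83021060, minus strand): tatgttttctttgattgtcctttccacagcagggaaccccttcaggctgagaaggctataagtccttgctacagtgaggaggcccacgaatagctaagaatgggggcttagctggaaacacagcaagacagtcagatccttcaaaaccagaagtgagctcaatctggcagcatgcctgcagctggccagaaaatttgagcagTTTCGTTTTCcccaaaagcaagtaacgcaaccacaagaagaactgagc

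In Slfn5 the match lay at bases -155 to -146 from the start site of its window, in Slfn9 at bases -45 to -36 and in Slfn8 at -48 to -39. The 250 bases before these 2 genes were 83.3% identical over 245 aligned bases, while the 27 other pairs of Schlafen promoters had 39.2% to 51.3%. The motif was present in 4 of 8 windows of 300 bases of the members (Slfn8 has 2 overlapping windows) and in 3.44% of all 32851 windows of the table. No window of a member held TTCNNNGAA (8.30% of all windows), a core bound by STAT dimers. The same was true of GGG followed, after any 3 bases, by TTCC (5.56%), a core bound by NF-kB, and of GAGGAAGT (3.20%), a core bound by PU.1. Both strands were searched for each, and no match of 1 motif overlapped that of another in a member's window. Only these exact patterns were counted, so sites that differ from them in a base or in spacing would be missed.

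A different stretch was common to Slfn2 and 2 genes downstream of it, and it was noticed only when the sequences were read. It was taken as the longest run common to these windows, so its presence in each follows from that choice. The window of the uncalled Slfn3 holds its first part, ACTTCCTGG, but not the whole run. Capitals mark the run ACTTCCTGGAG, which occurs on either strand in 24 of the 32851 windows (0.0731%).

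Slfn2 (chr11:83064862-83065111, plus strand): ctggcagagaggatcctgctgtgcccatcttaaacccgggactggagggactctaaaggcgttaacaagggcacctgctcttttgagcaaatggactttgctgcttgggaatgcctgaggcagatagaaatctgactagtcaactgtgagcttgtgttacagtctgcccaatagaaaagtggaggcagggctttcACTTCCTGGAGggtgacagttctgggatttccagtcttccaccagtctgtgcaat
Slfn1 (chr11:83116720-83116819, plus strand): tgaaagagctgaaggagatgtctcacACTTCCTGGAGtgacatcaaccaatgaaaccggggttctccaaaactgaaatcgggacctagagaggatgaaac
Slfn4 (chr11:83175072-83175171, plus strand): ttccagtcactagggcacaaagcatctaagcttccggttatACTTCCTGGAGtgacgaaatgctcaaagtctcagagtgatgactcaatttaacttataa

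The run lay at bases -55 to -45 in Slfn2, -74 to -64 in Slfn1 and -73 to -63 in Slfn4. On the other strand it holds all of GAGGAAGT, the pattern searched for PU.1, but the first base. These matches are letters in a window and carry no measurement of binding.

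Between LPS and saline, 4 of the 5 members that passed the filter on low counts were called higher by edgeR's quasi-likelihood test (adjusted p under 0.05 over all genes), a call made for 22.4% of the 13793 genes tested. None was called lower, against 22.5% of all genes, and 45.0% of all genes were called in either direction. The called members were Slfn2, Slfn5, Slfn9 and Slfn8, and the remaining tested member was Slfn3. Slfn1 and Slfn4 had too few counts for the filter and are described separately. In 3 of the 5 tested members (Slfn2, Slfn5 and Slfn9) all LPS mice lay above all saline mice, which held for 14.1% of the tested genes, while the reverse held for none of the 5 and for 15.7% of all. The median log2 fold change of the 5 tested members was 1.49, and that of all tested genes 0.00142. Without LPS replicate 4, which stands apart for several low genes of the cluster, the same count of 4 members was called.

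**Figure D1:**
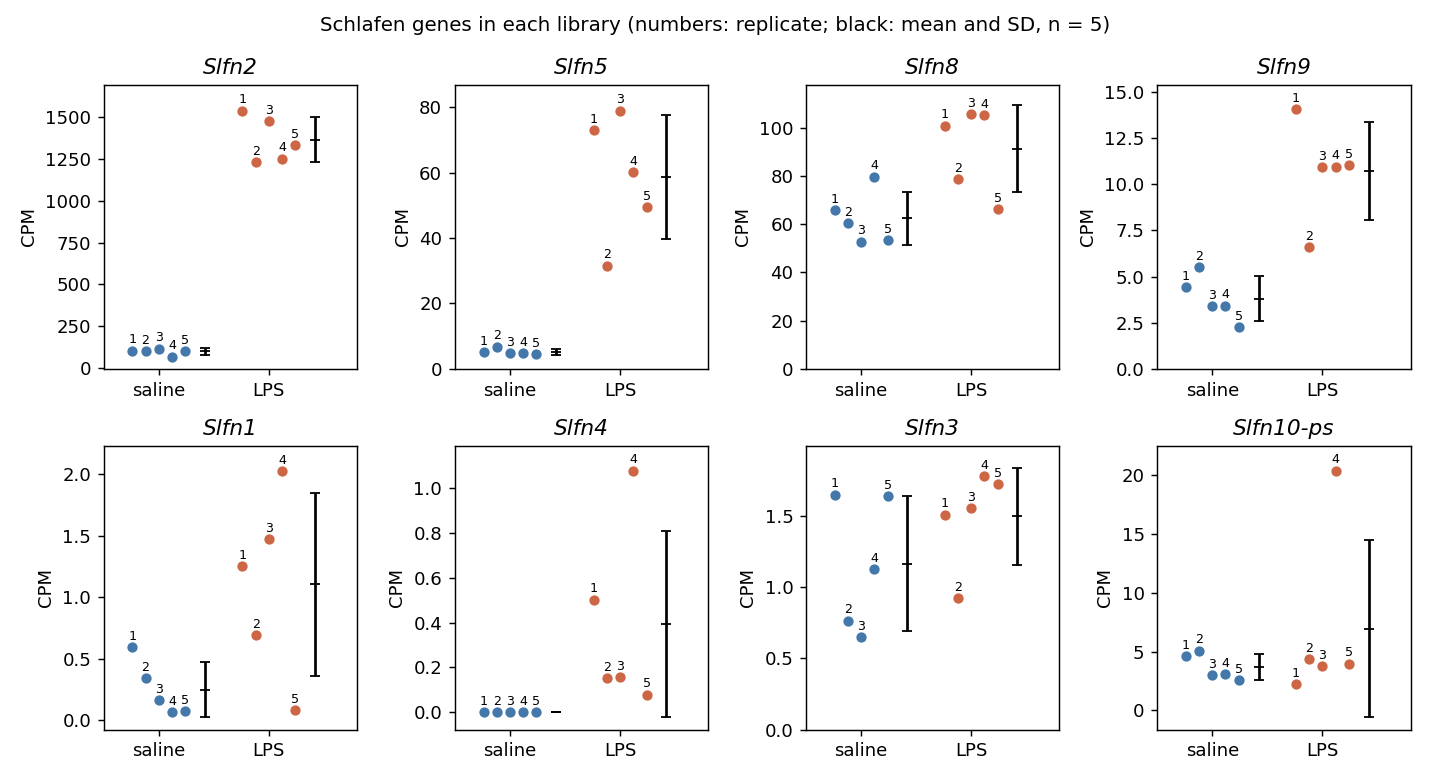
CPM (counts scaled to library size, vertical axes, each of which includes 0) of 7 Schlafen genes and the pseudogene Slfn10-ps in every library, with the mean and SD of each group of 5 in black and the replicate number above each point. Slfn2, Slfn5, Slfn9 and the low-count Slfn4 have no overlap between groups, while Slfn8, Slfn3, Slfn1 and Slfn10-ps overlap. LPS replicate 4 is the highest point for Slfn1, Slfn3, Slfn4 and Slfn10-ps.

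Slfn2 (Entrez gene 20556, 83065112 to 83070678) is the short member whose loss leaves T cells and monocytes unable to stay quiescent. Its level, in counts scaled to library size (CPM), was 104, 103, 116.5, 68.1 and 102 in saline replicates 1 to 5. In the LPS libraries it was 1539, 1232, 1476, 1253 and 1333 CPM. The lowest LPS mouse was thus far above the highest saline mouse, and saline replicate 4 was the lowest of its group. The group means were 98.7 ± 18.1 and 1366 ± 136 CPM (SD, n = 5 each), a 13.8-fold rise (log2 fold change 3.79 ± 0.15 SE, edgeR adjusted p = 3.80e-09). By adjusted p it ranked 4 among the 13793 tested genes, and by log2 fold change 107. The coefficient of variation among LPS mice was 9.94%, which was narrower than for any of the other members.

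Slfn5 (Entrez gene 327978, 82951349 to 82964850) encodes a long member that is found in the nucleus. Saline mice had 5.07, 6.79, 4.77, 4.93 and 4.49 CPM. LPS mice had 73.0, 31.6, 79.0, 60.1 and 49.4 CPM. The groups did not overlap, but the LPS mice differed among themselves, with replicate 3 highest and replicate 2 lowest. Slfn5 rose 11.3-fold from 5.21 ± 0.91 to 58.6 ± 19.0 CPM (SD, n = 5 each; log2 fold change 3.49 ± 0.26 SE, edgeR adjusted p = 1.67e-07). Slfn2 had a larger fold change than Slfn5 here and in every other setting of the analysis but 1, the removal of the length trend. The difference between the 2 genes was not tested. Slfn2 has short exons (1664 bases in all, with 16.9% of tested genes shorter) and Slfn5 long ones (6326 bases, with 73.9% shorter), and once the dependence on gene length had been fitted and subtracted in every library, the log2 fold changes were 3.38 for Slfn2 and 3.71 for Slfn5. The antisense gene Slfn5os, which overlaps Slfn5, had 0 counts in the 10 libraries, which allows up to 0.0221 CPM over all of them, for counting error only.

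Slfn9 (Entrez gene 237886, 82974316 to 82991830), another long member, was much lower than Slfn2 in both groups. It had 4.41, 5.52, 3.39, 3.43 and 2.28 CPM in the saline mice. In the LPS mice it had 14.1, 6.61, 10.95, 10.96 and 11.04 CPM. LPS replicate 2 was again the lowest of its group and came close to saline replicate 2, the highest control. Slfn9 rose 2.82-fold (3.81 ± 1.22 to 10.7 ± 2.66 CPM, SD, n = 5 each; log2 fold change 1.49 ± 0.27 SE, edgeR adjusted p = 0.000520).

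Slfn8 (Entrez gene 276950, 83002125 to 83020810) is the long member next to Slfn9 and slows the growth of T cells when overexpressed in mice. Levels were 65.7, 60.3, 52.8, 79.7 and 53.3 CPM in saline. They were 101, 78.7, 106, 105 and 66.1 CPM in LPS. Saline replicate 4 lay above LPS replicates 2 and 5, so the groups overlapped. Slfn8 rose 1.46-fold, from 62.4 ± 11.1 to 91.4 ± 17.9 CPM (SD, n = 5 each; log2 fold change 0.55 ± 0.17 SE, edgeR adjusted p = 0.0150). The adjusted p lay between 0.00348 and 0.0444 over 22 other settings of the analysis. The 2 genes with similar promoters thus had log2 fold changes of 0.55 and 1.49; the difference between them was not tested.

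Slfn3 (Entrez gene 20557, 83191330 to 83215154), an intermediate member, was low in both groups. Its counts were 25, 9, 8, 18 and 23 in saline and 18, 12, 20, 28 and 22 in LPS, between 0.646 and 1.78 CPM. The mean was 1.16 ± 0.471 CPM in saline and 1.49 ± 0.340 CPM in LPS (SD, n = 5 each), and the difference was not called (log2 fold change 0.35 ± 0.29 SE, edgeR adjusted p = 0.484).

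Slfn4 (Entrez gene 20558, 83175172 to 83190216) is an intermediate member known from activated macrophages and other myeloid cells. It had 0 counts in all 5 saline libraries. The LPS libraries held 6, 2, 2, 17 and 1 counts, 28 in all, of which 17 came from replicate 4. Set against a floor of 3 counts over the saline group, the pooled LPS level was 9.76 times that floor (0.422 CPM against 0.0432 CPM). Without LPS replicate 4 it was 5.03 times the floor, from 11 counts (0.217 CPM). These ratios leave out the counting error of the LPS libraries and the spread between LPS mice, so they are no lower bounds. Slfn1 (Entrez gene 20555, 83116820 to 83122670), the other short member, had 9, 4, 2, 1 and 1 counts in saline and 15, 9, 19, 32 and 1 in LPS. The mean was 0.246 ± 0.224 CPM in saline and 1.11 ± 0.748 CPM in LPS (SD, n = 5 each), and LPS replicate 5 lay among the saline mice while the other 4 lay above all of them.

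With no filter on low counts both genes were called higher by edgeR, with adjusted p = 0.0364 for Slfn1 and 0.00284 for Slfn4, where 11.4% of 27565 genes were called higher. DESeq2 also called both (adjusted p = 0.0209 and 0.00384), with 19.5% of 18977 genes called higher. Both genes rest on few reads, and their adjusted p values on the tool and filter used.

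Levels of different genes can be compared per gene length only. In the authors' normalised RPKM values (reads scaled to gene length and library depth), 5 members were listed. Slfn2 stood at 58.9 ± 11.6 RPKM in saline and 831 ± 84.8 RPKM in LPS (SD, n = 5 each). Slfn8 was next in both groups, with 11.9 ± 1.88 and 17.8 ± 3.36 RPKM. Slfn5 had 0.820 ± 0.148 RPKM in saline and Slfn9 0.552 ± 0.181 RPKM, with Slfn5 the higher in each of the 5 libraries although the ranges overlapped. In LPS, Slfn5 had 9.43 ± 3.03 RPKM and Slfn9 1.59 ± 0.395 RPKM, without overlap. By RPKM, Slfn3 was the lowest of the 5 in every library, at 0.166 ± 0.0680 and 0.218 ± 0.0455 RPKM. By CPM per kilobase of exon it was not the lowest in saline replicate 5, with 0.480 against 0.382 for Slfn9. For Slfn1 and Slfn4, CPM per kilobase of exon gave 0.593 ± 0.401 and 0.0992 ± 0.105 in LPS, where Slfn3 had 0.438 ± 0.0996 on the same scale, so that Slfn1 and Slfn3 could not be ordered.

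Slfn2 made up most of the summed Schlafen RPKM in both groups. Its share was 80.8% ± 5.86 in saline (70.9% to 85.9%) and 96.6% ± 0.582 in LPS (96.0% to 97.3%; SD, n = 5 each), and the ranges did not overlap. The share of Slfn8 went from 17.0% ± 5.57 to 2.07% ± 0.377 although its own level was higher in LPS. Slfn5 kept about the same share, 1.15% ± 0.232 and 1.08% ± 0.278. The sum of the 5 genes was 72.3 ± 9.93 RPKM in saline and 860 ± 88.8 RPKM in LPS.

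**Figure D2:**
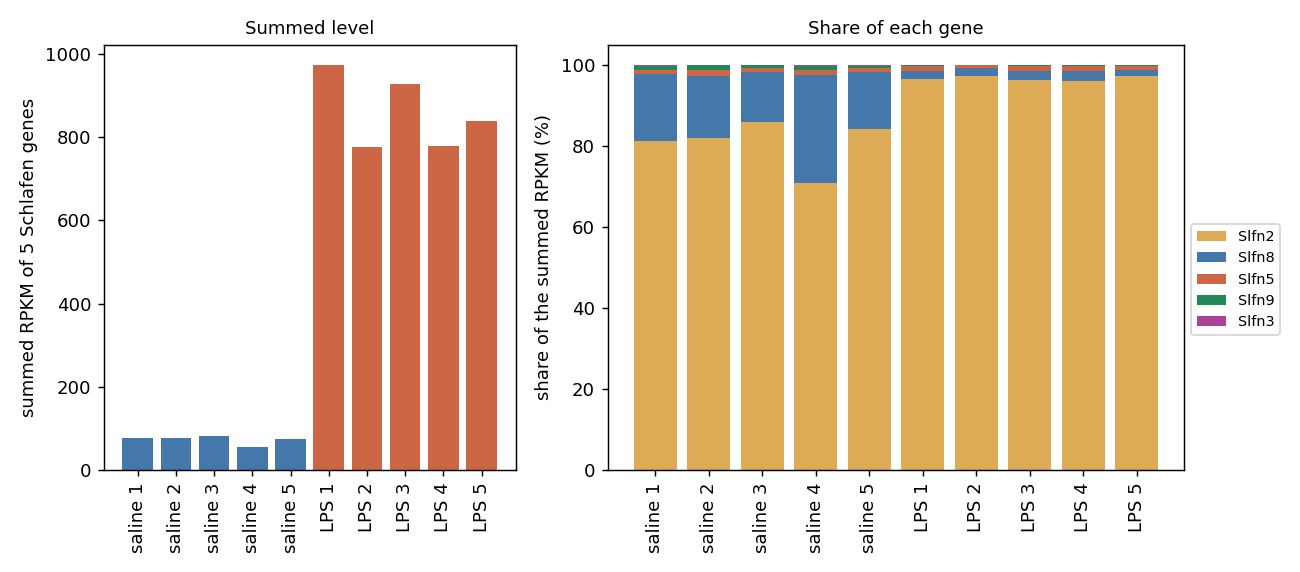
Left, summed RPKM of Slfn2, Slfn3, Slfn5, Slfn8 and Slfn9 in each of the 10 libraries; right, the share of each gene in that sum, in percent. Bars start at 0 and stand for single libraries; Slfn2 takes 70.9% to 85.9% of the sum in saline and 96.0% to 97.3% in LPS, and Slfn8 accounts for most of the rest in saline.

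Levels differed among the 5 LPS mice, and several members followed a like order. Each mouse gave 1 library, so no change within a mouse was measured. Slfn5 was highest in LPS replicates 3 and 1, at 0.50 and 0.39 above the mean of the LPS libraries on the log2 CPM scale, and lowest in replicate 2, at -0.82. Slfn9 was 0.43 above its mean in replicate 1 and at -0.65 in replicate 2. The median deviation of 22 interferon target genes was 0.70 in replicate 1, 0.56 in replicate 3 and -0.66 in replicate 2. Slfn2 had the same replicates at the top and at the bottom, but within -0.14 to 0.18. The uncalled Slfn3 was also lowest in replicate 2, at -0.59, so this low point was not particular to the called members. Slfn8 and Slfn1 were lowest in replicate 5 instead, at -0.44 and -2.13. Slfn4 was highest in replicate 4, at 1.48.

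**Figure D3:**
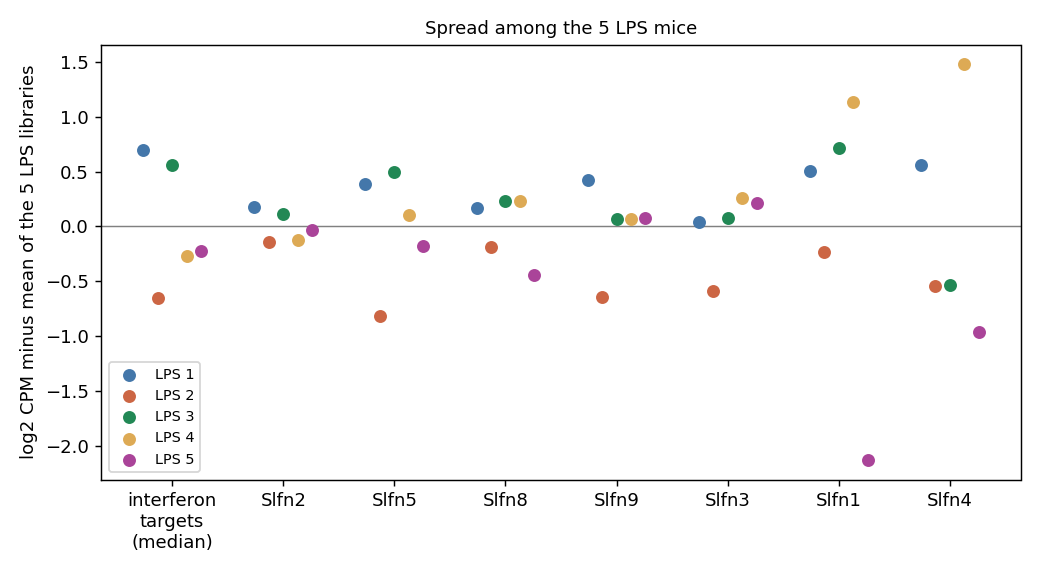
Deviation of each LPS library from the mean of the 5 LPS libraries, in log2 CPM, for the median of 22 interferon target genes and for each Schlafen gene; colours stand for mice. Replicates 1 and 3 lie above 0 and replicate 2 below it for the interferon targets and for every Schlafen gene but Slfn4, the uncalled Slfn3 included. Slfn1 and Slfn4 spread most widely and rest on few counts.

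Among all tested genes, the patterns nearest to Slfn2 and Slfn5 over the 10 libraries included known interferon-induced genes. Likeness was the root mean square difference of log2 CPM after each gene's mean had been subtracted. For genes with a large difference between groups, a small value means mainly a similar rise. It need not mean a similar order of mice: the SD of Slfn2 among LPS mice was 0.14 log2 CPM, less than the values given for it here. For Slfn2 the nearest were Rtp4 (0.26), Ifi30 (0.36), which encodes a lysosomal thiol reductase, and Anpep (0.37), an aminopeptidase gene. For Slfn5 they were Usp18 (0.31), the protease gene that removes ISG15 from proteins, Rtp4 (0.31) and Isg15 itself (0.32). Slfn9 had Galns (0.26), a lysosomal sulfatase gene, Smim3 (0.30) and 1600014C10Rik (0.30) nearest to it. The nearest to Slfn8 were Znfx1 (0.12), a helicase gene of antiviral defence, and Lacc1 (0.12). Slfn3, which was not called, had Tm2d1 (0.23), C1galt1 (0.23) and 2410004B18Rik (0.23).

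Interferon pathway genes were listed by role. Their counts are to be read beside the 22.4% of all tested genes called higher and 22.5% called lower. None of 8 ligand genes passed the filter on low counts, Ifnb1 and Ifng included. Of 4 receptor genes 1 rose and none fell: Ifngr1, a chain of the interferon gamma receptor, went from 2421 ± 204 to 3431 ± 170 CPM (SD, n = 5 each; edgeR adjusted p = 0.00378). Of 11 kinases and transcription factors 6 rose and 1 fell. Among these Irf7 rose 17.4-fold, while Stat2 rose 3.27-fold and Irf9 2.04-fold, all of which encode transcription factors of the interferon response. The falling gene was Jak1, named here after its values were seen, and its call ended without saline replicate 1, 2, 4 or 5, without LPS replicate 1 or 3, with RLE factors, with no filter, with DESeq2 and with the length trend removed. Of 4 tested genes listed as brakes of the pathway 3 rose, namely Usp18 (11.8-fold), Isg15 (11.5-fold) and Socs3 (8.11-fold). The listing carries no measurement of a braking role, and Isg15 is itself an interferon-induced gene. Of 22 target genes 21 rose and none fell, with Zbp1 55.5-fold, Ifitm3 31.2-fold and Rtp4 14.6-fold higher (edgeR adjusted p = 7.72e-08, 2.83e-07 and 7.59e-08). In total 31 of 41 tested genes of the pathway rose and 1 fell, with a median log2 fold change of 1.71. The rises of Slfn2 and Slfn5 were close to that of Rtp4, which follows from its place among their nearest patterns and is no separate result. Those of Slfn8 and Slfn9 were smaller than the median of the target genes (2.83).

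Of genes that cleave or protect transfer RNA, 1 of 7 tested rose and 1 fell, which is no more than among all tested genes (22.4% and 22.5%). Ang, which encodes angiogenin, went from 178 ± 35.6 to 121 ± 34.2 CPM (SD, n = 5 each; log2 fold change -0.55, edgeR adjusted p = 0.0289). Rnh1, which encodes the inhibitor that binds and blocks angiogenin, went from 280.0 ± 43.4 to 419 ± 91.7 CPM (edgeR adjusted p = 0.0128). The groups overlapped for both. The call of Ang ended without saline replicate 1, 3 or 5 or LPS replicate 1, 2 or 3 (adjusted p of 0.0512 to 0.0754), and that of Rnh1 once the length trend was subtracted (log2 fold change 0.35, adjusted p = 0.0818).

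Of 18 tested genes of quiescence and entry into the cell cycle, 5 rose and 3 fell, shares near those of all tested genes (22.4% and 22.5%). Ccnd2, a D-type cyclin gene, rose 11.4-fold to 9.54 ± 3.27 CPM, Cdkn1a, which encodes a cell cycle inhibitor, 7.88-fold to 41.98 ± 32.7 CPM, and Ccnd3 2.72-fold to 11.7 ± 5.33 CPM (SD, n = 5). Pcna and Mcm2, named after their values were seen, also rose. The genes that fell, named in the same way, were the forkhead factors Foxo1, Foxo3 and Foxp1, which keep lymphocytes quiescent. The other 10 were not called, Klf2, Tob1, Btg1 and Btg2 among them.

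The genes around the cluster did not all move with it. Within 200 kb of the outermost members lay 11 other protein-coding genes, of which 7 were tested, 1 rose and 3 fell, where 22.4% of all tested genes rose and 22.5% fell. The rising neighbour was Nle1, whose product serves ribosome assembly, with a 2.09-fold change (15.8 ± 3.15 to 33.1 ± 12.7 CPM, SD, n = 5 each; edgeR adjusted p = 0.00330). Rad51d, a gene of DNA repair, fell by 0.48 and Rffl, a ubiquitin ligase gene, by 0.68 on the log2 scale (edgeR adjusted p = 0.00838 and 0.0208), and Ap2b1 also fell. The call of Rffl ended without saline replicate 4 or LPS replicate 3 (adjusted p = 0.0655 and 0.0562).

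**Figure D4:**
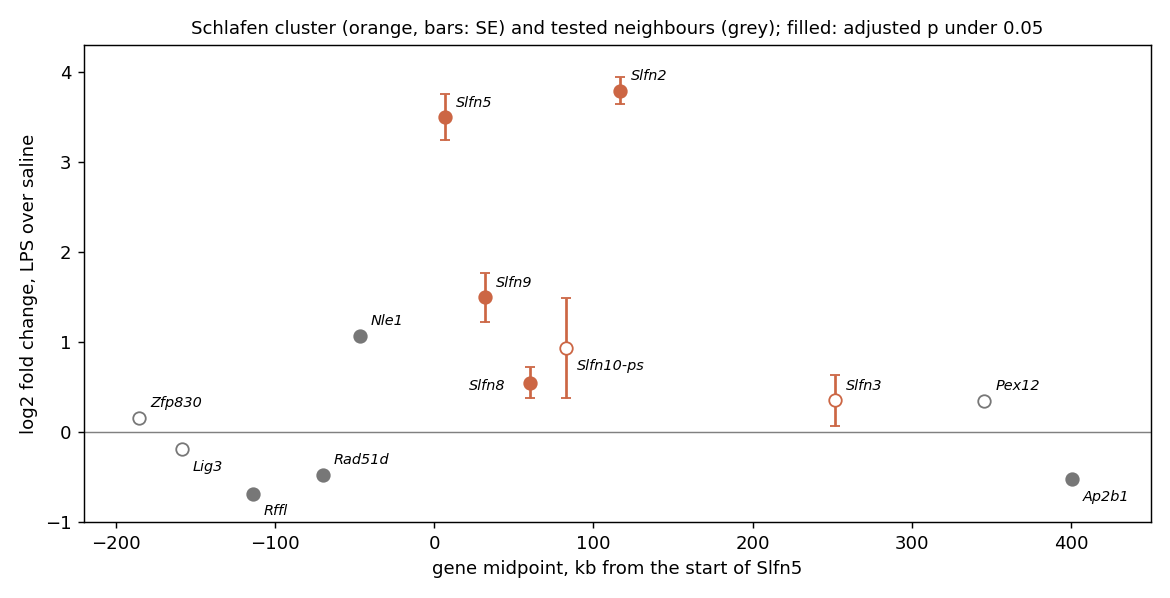
Log2 fold change of LPS over saline (vertical axis) against the midpoint of each tested gene in kb from the start of Slfn5 (horizontal axis); orange, Schlafen genes with SE; grey, neighbours; filled points had an edgeR adjusted p under 0.05. Slfn5 and Slfn2, at 3.49 and 3.79, stand above the genes between and around them, and the 7 neighbours lie between -0.68 and 1.06.

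Other loci of the family added little. The mean of Slfn10-ps was 3.67 ± 1.11 CPM in the control mice and 6.97 ± 7.56 CPM in LPS (SD, n = 5 each; log2 fold change 0.93, edgeR adjusted p = 0.144), and without LPS replicate 4 the log2 fold change was -0.02 (adjusted p = 0.961). Slfn14, a long member known from platelets, had 1 count in all, in a saline library. Slfnl1, on chromosome 4, had 2 counts in saline and 3 in LPS.

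Total counts per library were 11577295 to 15332121. The sorted cells carried microglial RNA: all 10 microglial markers were tested, and their summed level was 64140 to 73980 CPM in saline and 17180 to 37900 CPM in LPS, with 7 called lower and none higher. Markers of other cells moved too. The summed monocyte markers were 14.4 to 22.8 CPM in saline and 78.1 to 220 CPM in LPS, with 3 of 6 tested genes higher and 2 lower. The largest part of the sum in each LPS library was Ms4a4c (45.6 to 157 CPM). F13a1, Fn1 and Ms4a4c were called higher and Ccr2 and Spn lower, and Ly6c2 was at most 0.634 CPM. Neutrophil markers summed to 0.749 to 1.92 and 28.9 to 579 CPM, largely from Lcn2, and the defining marker Ly6g was at most 0.157 CPM. Border macrophage markers summed to 616 to 894 and 814 to 2090 CPM (5 of 7 tested higher), and T and NK cell markers to 0.561 to 3.95 and 0.0783 to 6.08 CPM (none tested). B cell markers summed to 74.7 to 110 and 73.5 to 143 CPM, and endothelial markers to 53.1 to 78.8 and 6.42 to 12.2 CPM (2 of 2 tested lower). Their part in the Schlafen results was not tested. In sorted bulk samples, fewer cells of a type and less RNA per cell cannot be told apart.

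The numbers in the mouse names fall into 3 ranges, which the labels do not explain. Within them the ratio of mean CPM of LPS over saline was 12.7 to 16.0 for Slfn2, 8.82 to 16.3 for Slfn5, 1.42 to 1.61 for Slfn8 and 2.08 to 4.83 for Slfn9, each from 1 or 2 mice a group. With the ranges as a term in the fit, Slfn2, Slfn5, Slfn8 and Slfn9 were called higher as before (edgeR adjusted p = 4.60e-08, 1.04e-06, 0.0139 and 0.00114).

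Members share sequence, so reads of one may be counted for another. Of the distinct stretches of 50 bases in the annotated transcripts, 4.27% of those of Slfn2 also occur in another gene, all in Slfn4. For Slfn8 it was 14.6%, mainly in Slfn10-ps (10.1%), and for Slfn9 11.9% (Slfn10-ps 8.10%). Slfn3 had 16.0%, Slfn4 11.3%, Slfn5 11.1% and Slfn1 0.606%. The labels do not say how reads with several matches were counted, and the few counts of Slfn4 and Slfn3 are uncertain for that reason, as is the split between Slfn8, Slfn9 and Slfn10-ps.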

How the data were processed

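The authors deposited 1 table of raw counts, made with featureCounts on GRCm38 (also written mm10), per the submitters' processing notes. Not given in the sources used here: aligner, annotation, strand setting, handling of reads with several matches. The authors also deposited RPKM values with a further normalisation that the sources do not explain. Per the labels' protocols, 5 ng of RNA were amplified before library construction; no molecular identifiers are described, so floors cover counting error only.

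The test on counts was that of edgeR 4.0.16 under R 4.3.3 (TMM factors, filterByExpr with a minimum count of 10, quasi-likelihood F test, Benjamini-Hochberg adjustment over all genes at 0.05), without covariates. CPM use TMM library sizes; standard errors come from log2 CPM with a prior count of 2. Of 40789 rows 13224 had no count; 1 row without a gene name was left out, and 15 names that a spreadsheet had turned into dates were restored from gene IDs. The tests were checked on simulated data in which only a small part of the genes was changed. That check does not reach a shift as broad as the 45.0% of tested genes called here. Replicate libraries all differed by more than sampling noise (chi-square per degree of freedom at least 14.6). Exon lengths and transcripts are from GENCODE M21, and gene positions and promoters from RefSeq, both on GRCm38.

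Alternatives were RLE, upper quartile or no scaling factors, other filters, DESeq2 1.42.0, limma-voom (limma 3.58.1), ranges of mouse numbers, limma on log2(RPKM + 1) or log2(RPKM + 0.1), removal of the length trend (lowess), and each mouse left out. The members, lists, motifs and tests were chosen with earlier results of these data known. Named genes were all members, up to 3 called genes of each list and of the neighbours with the smallest adjusted p, and the 3 nearest patterns of each tested member. A gene that this rule names is not reported here. Summaries used Python 3.11.15.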

Additional observations from a re-analysis of the deposited data

Results flagged for a closer look

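In 6 of 82 groups of 5 libraries examined, 1 library lay far from the others of its group (Dixon's test at 95%), where chance alone gives about 1 in 20. Slfn10-ps had 20.4 CPM in LPS replicate 4, with the other 4 LPS mice between 2.26 and 4.38 CPM. Slfn5 had 6.79 CPM in saline replicate 2, with the others between 4.49 and 5.07 CPM, all far under the LPS group. Zbp1 had 2.38 CPM in the same mouse (others 0.873 to 1.21 CPM). Socs3 had 32.3 CPM in saline replicate 1 (others 10.1 to 15.0 CPM). Rffl, a neighbour of the cluster, had 44.3 CPM in LPS replicate 4 (others 18.9 to 25.7 CPM). Galns was lowest in LPS replicate 2, at 77.1 CPM (others 95.6 to 102 CPM).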

How the results depend on the processing

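Slfn2, Slfn5, Slfn8 and Slfn9 kept their direction and their call in all 22 alternatives, and Slfn3 stayed without a call in the 20 that tested it. The log2 fold change lay between 3.38 and 3.86 for Slfn2, 2.47 and 3.71 for Slfn5, 0.46 and 0.66 for Slfn8, and 0.73 and 1.70 for Slfn9; the low ends of Slfn5 and Slfn9 come from log2(RPKM + 1), a scale that compresses low values. For Slfn1 and Slfn4, tested only without the filter, DESeq2 made the same call as edgeR. Leaving out 1 mouse at a time gave Slfn10-ps log2 fold changes of -0.0213 (without LPS replicate 4, a reversal) to 1.16 (without LPS replicate 1), and the sign changed for Tm2d1 with the length trend removed (-0.23); the cause was not tested. The share of Slfn2 was 57.3% in saline and 89.4% in LPS when taken from raw counts, which are not per length. Znfx1 lost its call with library size only (adjusted p = 0.0563). Lower calls among tRNA genes numbered 0 to 3. No paired analysis was possible because the groups share no mouse number and the labels name no pairs; a fit with the ranges of numbers as a term was run instead. Few counts limit Slfn1 and Slfn4.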

Other observations

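LPS replicate 4, the mouse with the highest CPM of Slfn1, Slfn3, Slfn4 and Slfn10-ps, also had the highest level of some markers of cells other than microglia. Chil3, a marker of monocytes and neutrophils, had 1.90 CPM there and 0 in the other LPS mice. S100a9, a calcium-binding protein gene of neutrophils, had 3.55 CPM against at most 0.0776 CPM. The T cell genes Cd8a and Cd2 had 0.570 and 0.444 CPM and were at 0 in every other library. Its summed border macrophage markers were 2090 CPM, with 814 to 1206 CPM in the other LPS mice. These genes were chosen after their values were seen. Other markers of the same lists peaked in other mice. The summed monocyte markers were highest in LPS replicate 3 (220 CPM, against 127 CPM in replicate 4). Ms4a4c alone made up 157 CPM of the sum in replicate 3 and 61.9 CPM in replicate 4. The summed neutrophil markers were highest in LPS replicate 5 (579 CPM, against 338 CPM in replicate 4). Most of both sums was Lcn2, at 557 CPM in replicate 5 and 306 CPM in replicate 4. Retnlg, Ngp, Camp and Cxcr2 were highest in replicate 4 like S100a9, Mmp8 and Ly6g in replicate 5, and Ltf in replicate 2. S100a8 also went with another mouse, at 6.28 CPM in replicate 4 and 9.08 CPM in replicate 5, where Slfn4 had 1 count. The part of such cells in the Schlafen values was not tested.

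Of the 351 tested genes with GAAA, any 2 bases and GAAA in a promoter window, 31.1% were called higher in LPS and 19.1% lower, next to 22.4% and 22.5% of all tested genes. For TTCNNNGAA the shares were 25.4% and 23.4%, for GGG, any 3 bases and TTCC 24.7% and 24.1%, and for GAGGAAGT 27.7% and 22.2%. Of the 10 tested genes with the run ACTTCCTGGAG 4 were called higher and 3 lower.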
